A study of Mus musculus with 12 samples.

Results

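Imprinted genes are transcribed from the copy inherited from 1 parent only. The choice of copy is set in the germ line, mostly by DNA methylation at CpG-rich control regions, and 1 such region often governs a whole cluster of neighbouring genes. Many paternally expressed genes promote fetal growth and many maternally expressed genes restrain it, and imprinted transcripts are known to vary between cultured mouse ES cell lines. Rex1, encoded by Zfp42, is a zinc-finger protein closely related to Yy1, and the question here is how 6 imprinted genes read in ES cells that carry 2, 1 or no intact Rex1 alleles.

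The 6 genes are Meg3 and Cdkn1c, which are maternally expressed, and Igf2, Mest, Slc38a4 and Snhg14, which are paternally expressed. They were found through the gene probes whose gene name, older names included, or gene symbol in the description is theirs, which gave 12 of 20280 gene probes and 6 of 6648 named genes. A further pair of probes, for Meg3 and Snhg14, matched through a clone in the description only, and these are given beside the others and enter no count. Meg3 had 4 probes, Igf2, Slc38a4 and Snhg14 had 2 each, and Mest and Cdkn1c had 1 each. The genes were selected on their log2 ratios on these same arrays, with the differences of HP3 and HP4 from EB5 and RKPG9 already known. Their own differences are therefore given as a description with no test of these genes, and counts of their probes called by the fit are a description too. Tests are kept for other imprinted genes, regulators of imprints and the insulin-like growth factor pathway. These lists too were drawn up with earlier results of these data known.

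RNA of 4 mouse ES cell lines was hybridized to 12 Agilent arrays, 3 per line. EB5 is wild type, RKPG9 is Rex1+/-, and HP3 and HP4 are both Rex1-/-. In the targeted allele a puromycin resistance and EGFP cassette takes the place of the start of the Rex1 reading frame, start codon included, and the study obtained Rex1-/- lines from RKPG9 under strong puromycin selection, by conversion of the remaining allele. It also made Rex1-/- lines with a hygromycin-resistance vector put into Rex1+/- cells, and which route gave HP3 and HP4 is not stated. Each genotype is thus represented by 1 line, or for Rex1-/- by a pair of clones that may share 1 parent. Genotype and clonal history therefore cannot be told apart, and a null allele was not tested separately from the cassette. Whether the 3 RNA samples per line were grown separately is not given in the labels, and the spread between their arrays may be technical.

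The line was labelled with Cy3 on every array and a pool of RNA from mouse cell lines with Cy5. A log2 ratio is the log2 of Cy3 over Cy5, and a difference is the mean log2 ratio of 1 line minus that of another, with its standard error from a limma fit over all 12 arrays. The ratio compares 1 probe between lines and says nothing of which of several genes is more abundant. Bulk RNA cannot tell a change in every cell from a change in the share of cells that express a gene, nor 1 parental copy from the other. Maternally or paternally expressed is here a label from the gene lists, and imprinting in these lines was not tested.

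In Cy3, 85.3 to 94.5% of gene probes were well above background on each array. The EB5 arrays were read in a session of their own, with a background adjustment that was switched off for the other 9 arrays, so every difference from EB5 cannot be told apart from that session, whereas RKPG9, HP3 and HP4 were read together. HP4 arrays were dimmer, with summed Cy3 signals of the ES cell markers of 4241 to 5419 against 8018 to 11488 on the other arrays. All 6 measured ES cell markers were well above background on every array of each line. In HP3 against RKPG9, 2 of them rose and none fell, while in HP4 4 fell and 1 rose against RKPG9, with a median difference of -0.29 and a lowest of -0.67, and 4 fell against HP3, with a median of -0.40. Among all probes, 12.6% rose and 10.1% fell in HP3 against RKPG9. In HP4, 20.8% of all probes rose and 19.2% fell against RKPG9, and 14.7% fell against HP3. Both Zfp42 probes read between 5.78 and 6.12 in EB5, RKPG9 and HP3 and between 5.22 and 5.66 in HP4. The targeted allele still makes a truncated Rex1 transcript and the position of these probes was not given, so they do not check the genotype labels.

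Sequences upstream of the annotated starts are shown because CpG pairs are the sites that imprints use. RefSeq (GRCm38.p6) places Mest at chr6:30733506-30748466, Snhg14 at chr7:59272737-60450177, Igf2 at chr7:142650768-142666816, Cdkn1c at chr7:143458339-143461059, Meg3 at chr12:109540996-109571729 and Slc38a4 at chr15:96994816-97055956. Of these genes 5 were in the promoter table, with 13 start sites in all, and Cdkn1c was not. For each of the 5, the 250 bases before the start richest in CpG follow, 5' to 3' on the gene's strand, with every CpG pair in capitals.
Meg3 (chr12:109540746-109540995, plus strand): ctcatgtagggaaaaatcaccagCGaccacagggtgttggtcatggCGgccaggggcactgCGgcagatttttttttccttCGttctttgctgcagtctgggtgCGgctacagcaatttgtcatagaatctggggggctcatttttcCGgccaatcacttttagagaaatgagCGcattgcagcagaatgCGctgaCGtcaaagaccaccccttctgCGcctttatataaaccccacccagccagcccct
Igf2 (chr7:142658805-142659054, minus strand): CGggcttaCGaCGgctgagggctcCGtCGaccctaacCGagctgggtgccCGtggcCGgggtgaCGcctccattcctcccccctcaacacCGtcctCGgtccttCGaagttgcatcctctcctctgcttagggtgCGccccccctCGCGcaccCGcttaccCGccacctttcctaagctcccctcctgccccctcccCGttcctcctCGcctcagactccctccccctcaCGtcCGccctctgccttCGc
Mest (chr6:30737800-30738049, plus strand): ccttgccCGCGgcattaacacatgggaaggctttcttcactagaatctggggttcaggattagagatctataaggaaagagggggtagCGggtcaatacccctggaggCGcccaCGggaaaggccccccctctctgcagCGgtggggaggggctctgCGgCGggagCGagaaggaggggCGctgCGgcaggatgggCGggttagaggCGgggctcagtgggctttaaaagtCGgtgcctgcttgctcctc
Slc38a4 (chr15:97031214-97031463, minus strand): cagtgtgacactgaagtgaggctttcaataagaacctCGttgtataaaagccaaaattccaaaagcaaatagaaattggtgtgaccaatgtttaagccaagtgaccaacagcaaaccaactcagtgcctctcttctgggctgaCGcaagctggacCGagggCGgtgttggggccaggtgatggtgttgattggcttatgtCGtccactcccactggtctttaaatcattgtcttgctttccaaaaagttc
Snhg14 (chr7:60450178-60450427, minus strand): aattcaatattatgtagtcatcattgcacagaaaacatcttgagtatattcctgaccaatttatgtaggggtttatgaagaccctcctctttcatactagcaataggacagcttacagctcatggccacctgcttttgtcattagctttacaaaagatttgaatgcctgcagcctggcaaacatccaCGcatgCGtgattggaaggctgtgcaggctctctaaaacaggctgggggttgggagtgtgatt

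The windows differed widely in CpG. Igf2 held 22 CpG pairs, a count reached by 14.8% of 32851 RefSeq windows of this length, and Mest held 14, a count reached by 29.4% of windows. Meg3 held 10, reached by 37.8%, Slc38a4 held 5, reached by 55.6%, and Snhg14 held 2, reached by 81.2%. The median window held 6. Each count is that of the richest start of a gene set against single windows, which favours genes with several starts. The other starts held 1, 10 and 6 (Igf2), 0 (Meg3), 7 and 14 (Mest) and 3 and 5 (Slc38a4). The core of the Yy1 motif, written GCCATNTT and searched on both strands, was present in 1 of the 13 windows, another start of Slc38a4 at chr15:97020360-97020609, and in 3.91% of all windows. The arrays did not measure methylation or binding at any of them.

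Of the maternally expressed genes, Meg3, a long noncoding RNA of the Dlk1 to Dio3 cluster on chromosome 12, was highest in both Rex1-/- lines at its brightest probe, A_65_P04959. The log2 ratios there were 2.18, 2.17 and 2.21 (EB5), 2.41, 2.38 and 2.49 (RKPG9), 3.29, 3.22 and 3.45 (HP3) and 3.12, 3.13 and 2.89 (HP4). No 2 lines overlapped, and the order was EB5, RKPG9, HP4 and HP3. HP3 differed from RKPG9 by 0.90 ± 0.07 on the log2 scale and HP4 by 0.62 ± 0.07, and from EB5 the differences were 1.14 ± 0.07 and 0.86 ± 0.07. The sizes depend on the processing. With no background subtracted, HP4 differed from RKPG9 by 0.12, and by the median of the Meg3 probes HP4 differed from EB5 by 0.17.

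The other 3 Meg3 probes did not all share this pattern. At A_65_P12004 the log2 ratios were 0.90, 1.05 and 1.02 (EB5), 1.05, 1.34 and 1.35 (RKPG9), 1.70, 1.95 and 1.70 (HP3) and 1.76 on each HP4 array, so that both Rex1-/- lines again lay above the other lines. At A_65_P07053, HP3 alone stood apart, at 2.62, 3.05 and 2.66, while EB5 read 2.01 to 2.16, RKPG9 2.00 to 2.32 and HP4 1.79 to 2.20. The reference RNA was well above background there on only 1 RKPG9 array. Over the processing settings, the difference of HP4 from RKPG9 at A_65_P07053 ran from -0.36 to 0.56. That of HP4 from HP3 ran from -0.72, as reported, to -0.11. At A_65_P00953, EB5, RKPG9 and HP4 overlapped between 1.11 and 1.46 and HP3 read 1.50 to 1.96. The reference RNA was not well above background at A_65_P00953 on any array of RKPG9, HP3 or HP4, so this ratio has a dim denominator. A further probe, A_65_P01584, whose description is a RIKEN clone name that is a synonym of Meg3, read -0.41 to -0.12 with all lines overlapping.

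Cdkn1c, which encodes the cell cycle inhibitor p57Kip2, stood out in RKPG9 instead. Its log2 ratios were 2.93, 2.88 and 2.99 on EB5 arrays, 1.71, 1.73 and 1.80 on RKPG9 arrays, 2.77, 2.84 and 2.85 on HP3 arrays and 2.23, 2.68 and 2.57 on HP4 arrays. Every RKPG9 array lay below every array of the other lines. The difference of RKPG9 from EB5 was -1.19 ± 0.09, a 2.28-fold lower ratio, and those of HP3 and HP4 from RKPG9 were 1.07 ± 0.09 and 0.75 ± 0.09. HP3 and HP4 lay below EB5 without overlap, by differences of -0.12 ± 0.09 and -0.44 ± 0.09, but both turned positive, to 0.39 and 0.34, when the signals processed by the scanner software were used, so no order of these 3 lines is given. Without HP4 replicate 1, the lowest of its line, the difference of HP4 from HP3 went from -0.33 to -0.20.

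**Figure D1:**
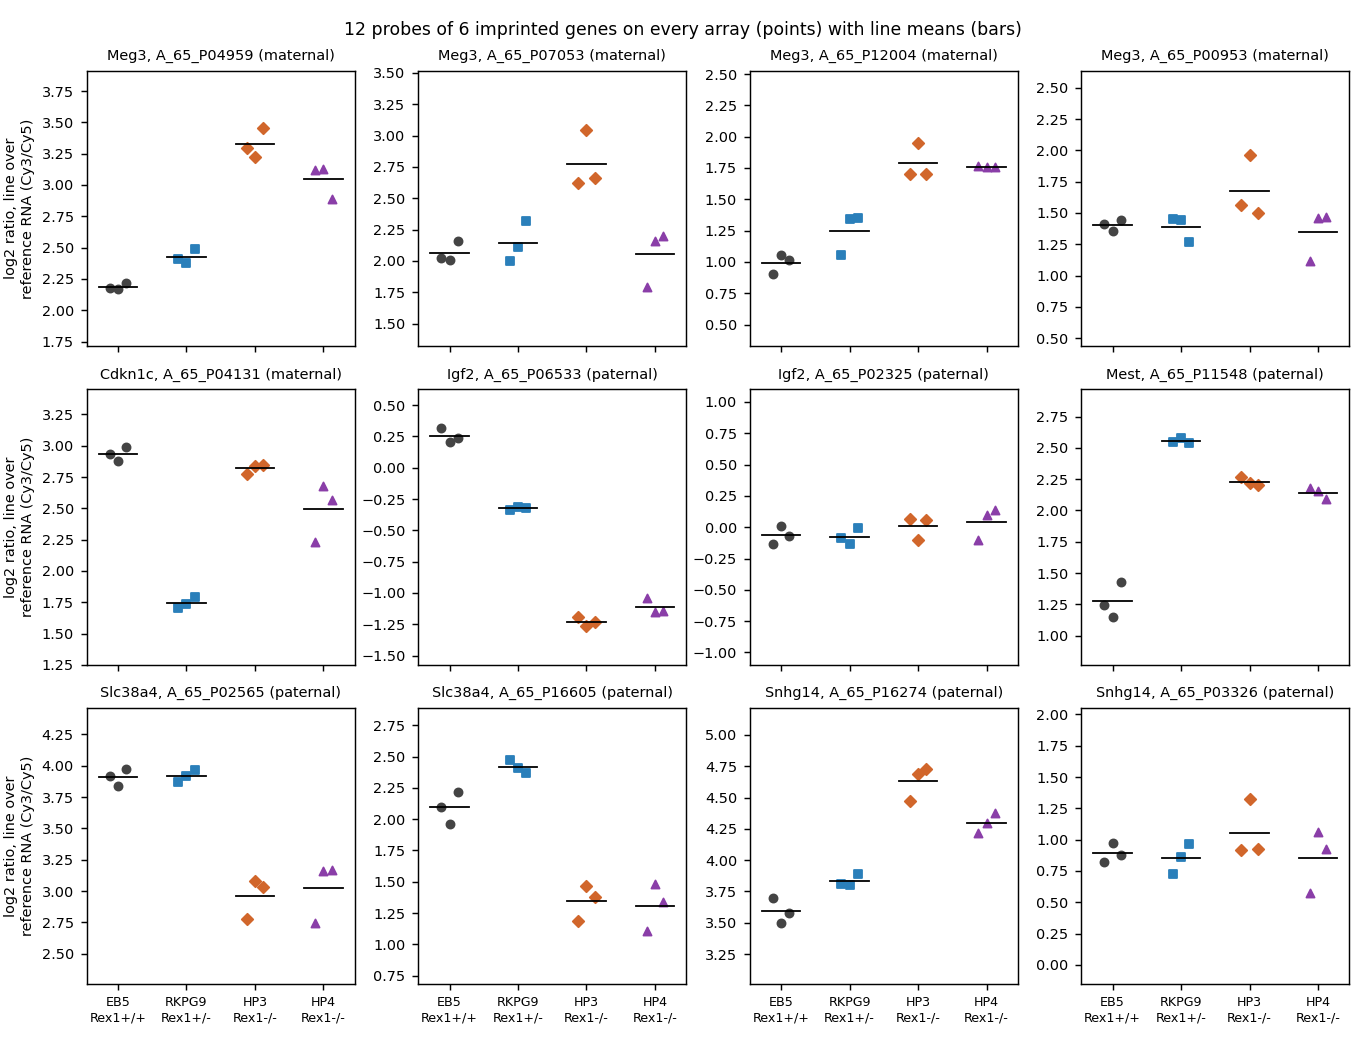
Log2 ratio of Cy3 (line) over Cy5 (reference RNA) on the vertical axis at each of the 12 probes, with 1 point per array, 3 arrays per line, and a bar at the line mean. Meg3 at A_65_P04959 and Snhg14 at A_65_P16274 were higher and both Slc38a4 probes lower in HP3 and HP4 than in EB5 and RKPG9, Cdkn1c was lowest in RKPG9 at 1.71 to 1.80, and Mest was lowest in EB5 at 1.15 to 1.43.

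Among the paternally expressed genes, Slc38a4, an amino acid transporter of the system A type, gave the same picture at both of its probes. At A_65_P02565 the log2 ratios were 3.92, 3.84 and 3.98 (EB5), 3.87, 3.92 and 3.96 (RKPG9), 2.77, 3.08 and 3.03 (HP3) and 2.74, 3.16 and 3.17 (HP4). At A_65_P16605 they were 2.10, 1.96 and 2.22 on EB5 arrays, 2.47, 2.41 and 2.36 on RKPG9 arrays, 1.18, 1.47 and 1.38 on HP3 arrays and 1.10, 1.49 and 1.34 on HP4 arrays. Both Rex1-/- lines lay below EB5 and RKPG9 on every array and overlapped each other. Differences from RKPG9 at the first probe were -0.96 ± 0.11 in HP3 and -0.90 ± 0.11 in HP4, and at the second -1.07 ± 0.10 and -1.10 ± 0.10, or 2.10-fold and 2.15-fold lower ratios. RKPG9 and EB5 overlapped at the first probe, while RKPG9 was above EB5 by 0.32 ± 0.10 at the second.

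Snhg14, the long noncoding host transcript of small nucleolar RNAs that runs antisense to Ube3a, is named D7Ertd715e in the files. At A_65_P16274 its log2 ratios were 3.70, 3.50 and 3.58 (EB5), 3.81, 3.80 and 3.89 (RKPG9), 4.47, 4.69 and 4.73 (HP3) and 4.21, 4.30 and 4.38 (HP4). No 2 lines overlapped, in the order EB5, RKPG9, HP4 and HP3, which was also the order of Meg3 at its brightest probe. This order of Snhg14 depends on the processing. In the Cy3 channel alone, RKPG9 differed from EB5 by -0.33 and HP4 from HP3 by 0.010. Differences from RKPG9 were 0.80 ± 0.07 in HP3 and 0.46 ± 0.07 in HP4. At the dimmer probe A_65_P03326 all lines overlapped, from 0.58 to 1.32, and the differences from RKPG9 were 0.20 ± 0.13 in HP3 and 0.00 ± 0.13 in HP4. A probe described only as similar to a Snhg14 clone, and as possibly of the wrong strand, read -0.15 to 0.04.

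Igf2, which encodes the fetal growth factor IGF-II, read differently at its 2 probes. At A_65_P06533 the log2 ratios were 0.31, 0.20 and 0.24 on EB5 arrays, -0.34, -0.31 and -0.32 on RKPG9 arrays, -1.19, -1.26 and -1.24 on HP3 arrays and -1.04, -1.15 and -1.14 on HP4 arrays. This probe was well above background in Cy3 on all EB5 and RKPG9 arrays, on 1 HP3 array and on no HP4 array. Against HP4 only a bound can therefore be given, from the Cy3 channel alone after normalization between arrays, of at least 2.15-fold higher in EB5 and at least 1.69-fold higher in RKPG9. The bound was set at the reading of the probe itself in HP4, which was above the lowest signal called well above background on each of these arrays. It holds for this background correction only, since with no background subtracted the difference of HP4 from RKPG9 was -0.12 on the log2 scale.

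At the other Igf2 probe, A_65_P02325, all lines overlapped between -0.13 and 0.13, and it was well above background on all 12 arrays. The differences there were at most 0.12 ± 0.07, between HP4 and RKPG9. Whether the probes detect different transcripts was not tested, since their sequences were not used here. At A_65_P06533, where 2 of 3 HP3 arrays were not well above background, the size of the difference between HP3 and EB5 was set by the background correction. It ran from -2.99 with the processed signals to -0.43 with no background subtracted, and kept its direction over the 13 settings tried.

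Mest, which encodes a member of the alpha/beta hydrolase family, was lowest in EB5 and highest in RKPG9. Its log2 ratios were 1.24, 1.15 and 1.43 (EB5), 2.54, 2.58 and 2.54 (RKPG9), 2.27, 2.22 and 2.20 (HP3) and 2.18, 2.15 and 2.09 (HP4). The difference of RKPG9 from EB5 was 1.28 ± 0.06, or 2.43-fold. HP3 and HP4 lay below RKPG9 by differences of -0.33 ± 0.06 and -0.41 ± 0.06 and above EB5 by 0.95 ± 0.06 and 0.87 ± 0.06. Since EB5 was read in its own session, the distance of Mest from EB5 cannot be told apart from that session, but the order of RKPG9 above HP3 and HP4 lies within 1 session.

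**Figure D2:**
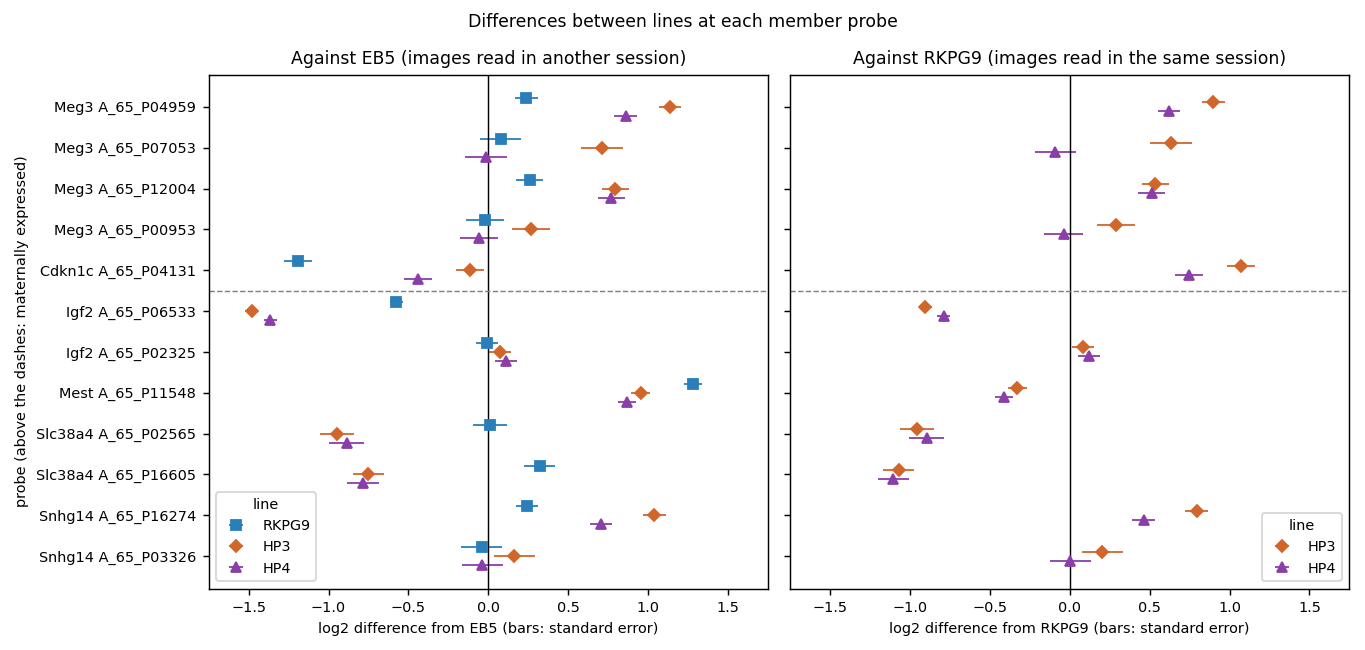
Differences between lines at each member probe on the log2 scale, with bars of 1 standard error from the limma fit (n = 3 arrays per line), against EB5 (left) and against RKPG9 (right), with maternally expressed genes above the dashed line. Against RKPG9, Cdkn1c and the brightest Meg3 probe lie to the right at 0.62 to 1.07, and both Slc38a4 probes, Mest and Igf2 at A_65_P06533 lie to the left at -1.10 to -0.33, while Snhg14 at A_65_P16274, which is paternally expressed, lies to the right.

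Set out by expressed allele, and against RKPG9, no maternally expressed probe was called lower. Of the 5 maternally expressed probes, 4 were called higher in HP3 at an adjusted p under 0.05, where 12.6% of all probes were called higher and 10.1% lower. Of the 7 paternally expressed probes, 4 were called lower and 1 higher in the same comparison. In HP4 against RKPG9, 3 of the 5 maternally expressed probes were called higher, and 4 of the 7 paternally expressed probes lower and 1 higher, where 20.8% of all probes were called higher and 19.2% lower. The median difference over the maternally expressed probes was 0.63 in HP3 and 0.51 in HP4, and over the paternally expressed probes -0.33 and -0.41. The paternally expressed exception was Snhg14 both times. Meg3 alone gave 4 of the 5 maternally expressed probes. The falls in HP4 include Igf2 at A_65_P06533, which was not well above background there. These counts rest on 2 maternally and 4 paternally expressed genes chosen with the values known, so nothing is read from them. Both comparisons share the RKPG9 arrays.

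The same counts were made against EB5. In HP3, 3 of 5 maternally expressed probes were called higher and none lower, while 2 of 7 paternally expressed probes were called higher and 3 lower, where 11.4% of all probes were called higher and 19.1% lower. In HP4 the maternally expressed probes gave 2 higher and 1 lower and the paternally expressed probes 2 higher and 3 lower, with 18.4% of all probes higher and 26.5% lower. In RKPG9 they gave 2 higher and 1 lower, and 3 higher and 1 lower, with 12.6% higher and 21.6% lower among all probes. Between the Rex1-/- lines, HP4 against HP3, no member probe was called higher and 4 of 12 were called lower, 3 of them maternally expressed, where 13.7% of all probes were called higher and 14.7% lower. These were Cdkn1c (-0.33 ± 0.09), Meg3 at A_65_P04959 (-0.28 ± 0.07) and A_65_P07053 (-0.72 ± 0.13), and Snhg14 at A_65_P16274 (-0.33 ± 0.07).

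The other genes of the same clusters were listed for their position, although with earlier results of these data known. They are given against RKPG9, with adjusted p-values from limma over all gene probes. On chromosome 12, Dlk1, the paternally expressed neighbour of Meg3 and a Notch-related membrane protein, rose in both Rex1-/- lines. Its log2 ratios were -2.61, -2.58 and -2.52 (RKPG9), -1.80, -2.21 and -1.97 (HP3) and -1.88, -2.07 and -2.09 (HP4). The differences were 0.58 ± 0.10 (adjusted p = 0.00131) and 0.56 ± 0.10 (adjusted p = 0.00104), although median centring of the arrays in place of loess took the difference in HP4 to -0.03. Dlk1 had been lower in RKPG9 than in EB5, by a difference of -0.46 ± 0.10 (adjusted p = 0.0042), which read -2.21 to -1.93. Against EB5, the differences of Dlk1 were 0.12 in HP3 and 0.10 in HP4, and neither passed.

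A probe described only as similar to Rian, a maternally expressed noncoding RNA downstream of Meg3, also rose. The difference from RKPG9 was 0.62 ± 0.08 in HP3 (adjusted p = 0.000151) and 0.28 ± 0.08 in HP4 (adjusted p = 0.0167), and from EB5 0.79 ± 0.08 (adjusted p = 2.87e-05) and 0.45 ± 0.08 (adjusted p = 0.000966). Its arrays read 1.24 to 1.27 in RKPG9, 1.73 to 1.94 in HP3 and 1.44 to 1.64 in HP4. The reference RNA was not well above background at this probe on any array of these 3 lines, and the difference of HP4 from RKPG9 did not pass without HP4 replicate 3 (0.23). Of the 13 other processing settings, the call against RKPG9 was lost in 1 for HP3 and in 2 for HP4. With no background subtracted, these differences were 0.18 and 0.06.

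On distal chromosome 7, around Igf2 and Cdkn1c, the 6 measured neighbours differed from RKPG9 by at most 0.32 either way. H19, the maternally expressed noncoding RNA next to Igf2, read -0.55 to -0.45 in RKPG9, -0.68 to -0.40 in HP3 and -0.43 to -0.32 in HP4, and neither difference passed the test (adjusted p = 0.743 and 0.246). The difference of H19 in HP4, 0.10, passed under 2 of the 13 other processing settings and was -0.10 with the deposited table. In HP3, Cd81, a tetraspanin, was the only 1 of the 6 that passed, by a difference of -0.13 ± 0.03 (adjusted p = 0.00884). In HP4, Cd81 fell by 0.23 ± 0.03 (adjusted p = 0.000116) and Tssc4 by 0.11 ± 0.04 (adjusted p = 0.031), while Tspan32 rose by 0.32 ± 0.07 (adjusted p = 0.00211) and Nap1l4, a histone chaperone, by 0.12 ± 0.03 (adjusted p = 0.0103). Tssc4 no longer passed without RKPG9 replicate 1 (-0.08), RKPG9 replicate 2 (-0.12) or HP4 replicate 2 (-0.08), and Tspan32 was 0.10 and did not pass in the Cy3 channel alone. Osbpl5, an oxysterol-binding protein, differed by 0.13 ± 0.06 in HP3 (adjusted p = 0.117), where it passed without HP3 replicate 2 (0.18), and by 0.14 ± 0.06 in HP4 (adjusted p = 0.0596), where it passed without HP3 replicate 1 or 2 (0.14). Next to Mest on chromosome 6, Copg2, a coatomer subunit, differed by -0.02 ± 0.04 in HP3 (adjusted p = 0.798) and fell by 0.17 ± 0.04 in HP4 (adjusted p = 0.00813), with 1 spot each left out as an outlier on 1 EB5, 1 RKPG9 and 1 HP3 array. Copg2 in HP4 no longer passed without RKPG9 replicate 3 (-0.15).

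In the central chromosome 7 cluster, the measured neighbours of Snhg14 did not move as 1 block. Magel2, a paternally expressed ubiquitin ligase regulator, rose by 0.27 ± 0.07 in both HP3 (adjusted p = 0.0217) and HP4 (adjusted p = 0.0119). Ndn, which encodes the related protein necdin, rose by 0.16 ± 0.05 in HP3 (adjusted p = 0.0413) and differed by 0.10 ± 0.05 in HP4 (adjusted p = 0.158), and the first of these turned to -0.24 in the Cy3 channel alone. Neither rise in HP3 was stable to the arrays used. Ndn no longer passed without any 1 of EB5 replicate 1, the 3 RKPG9 arrays, HP3 replicates 1 and 3 and HP4 replicate 3 (0.14 to 0.17), and Magel2 without RKPG9 replicate 2 or 3 or HP3 replicate 2 or 3 (0.23 to 0.28). Mkrn3 did not pass in HP3 and fell by 0.20 ± 0.05 in HP4 (adjusted p = 0.00442). The fall of Mkrn3 did not pass under 2 of the 13 other processing settings, and it was -0.06 with no background subtracted. Atp10a, a phospholipid transporter, fell by 0.43 ± 0.05 in HP3 (adjusted p = 9.35e-05) and by 0.34 ± 0.05 in HP4 (adjusted p = 0.000313). Against EB5, at the brightest probes, none of the 5 measured neighbours passed in HP3 (-0.12 to 0.11). In HP4 2 fell and none rose against EB5 (-0.20 to 0.11), and in RKPG9 1 rose and none fell (-0.17 to 0.31).

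Ube3a is a ubiquitin ligase listed as maternally expressed, and Snhg14 overlaps it in antisense. Ube3a did not pass in HP3 at either probe, with differences from RKPG9 of 0.12 ± 0.05 (adjusted p = 0.0978) and 0.08 ± 0.05 (adjusted p = 0.271). In HP4 it fell by 0.15 ± 0.05 (adjusted p = 0.0224) at A_65_P12680 and by 0.29 ± 0.05 (adjusted p = 0.000471) at A_65_P06255. At A_65_P12680 the fall did not pass without RKPG9 replicate 1 (-0.10), HP4 replicate 2 (-0.13) or HP4 replicate 3 (-0.14), while the difference of HP3 passed without RKPG9 replicate 1 (0.16). At A_65_P06255 the arrays read 0.82, 0.84 and 0.86 (RKPG9), 0.89, 0.93 and 0.95 (HP3) and 0.42, 0.59 and 0.62 (HP4).

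Over the whole imprinted list without the 6 genes, 36 of 66 genes had a probe that could be named, taken at its brightest, and the other 30 were not analysed here. In HP3 against RKPG9, 11 rose, 7 fell and 18 did not pass, with a median difference of 0.06 against 0.00 over all probes, of which 12.6% rose and 10.1% fell. In HP4 against RKPG9, 11 rose, 13 fell and 12 did not pass, with a median of 0.08 against 0.01, where 20.8% of all probes rose and 19.2% fell. Against EB5, 3 rose and 10 fell in HP3, 5 rose and 16 fell in HP4, and 5 rose and 16 fell in RKPG9, where 19.1, 26.5 and 21.6% of all probes fell in turn. In HP4 against HP3, 6 rose and 8 fell, where 13.7% of all probes rose and 14.7% fell. The balance of rises and falls depended on the scaling. In the Cy3 channel alone, HP3 against EB5 gave 8 rises and 4 falls, HP4 against EB5 gave 9 and 10, and RKPG9 against EB5 gave 6 and 9. After median centring, HP4 against RKPG9 gave 9 rises and 20 falls, HP4 against HP3 gave 5 and 22, and HP3 against RKPG9 gave 7 and 7.

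Counted by expressed allele, this list held rises and falls on both sides. Of 20 maternally expressed genes, 4 rose and 4 fell in HP3 against RKPG9, and 6 rose and 8 fell in HP4. Of 14 paternally expressed genes, 6 rose and 3 fell in HP3, and 4 rose and 5 fell in HP4. The medians were 0.06 and 0.08 in HP3 and 0.10 and 0.03 in HP4, for maternally and paternally expressed genes in turn. No test between the alleles was made.

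The called genes with the largest differences in each comparison are given next. They were picked by size from those called. Of the genes named in this way, Cobl, Igfbp3 and Irs1 also stand in the study's own lists for HP3 against EB5. Those lists also hold Meg3, under its older name Gtl2, as higher in HP3 and Igf2 as lower. Cobl, a maternally expressed gene whose protein nucleates actin filaments, was lowest in EB5 and highest in RKPG9. Its log2 ratios were 0.76, 0.99 and 1.05 (EB5), 2.34, 2.25 and 2.24 (RKPG9), 1.64, 1.76 and 1.66 (HP3) and 1.13, 1.26 and 1.26 (HP4), and no 2 lines overlapped. It was higher than in EB5 by 1.34 ± 0.07 in RKPG9 (adjusted p = 6.75e-08), by 0.75 ± 0.07 in HP3 (adjusted p = 1.4e-05) and by 0.28 ± 0.07 in HP4 (adjusted p = 0.00712), the last of which was 0.05 and did not pass with no background subtracted. Against RKPG9 it fell by 0.59 ± 0.07 in HP3 (adjusted p = 7.08e-05) and by 1.06 ± 0.07 in HP4 (adjusted p = 4.58e-07).

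Sgce, a paternally expressed sarcoglycan, fell in both Rex1-/- lines against RKPG9 and EB5, reading -0.95 to -0.93 in RKPG9, -1.45 to -1.35 in HP3 and -1.47 to -1.34 in HP4. Its differences from RKPG9 were -0.45 ± 0.04 (adjusted p = 9.36e-06) and -0.44 ± 0.04 (adjusted p = 7.72e-06), and from EB5 -0.61 ± 0.04 (adjusted p = 1.32e-06) and -0.60 ± 0.04 (adjusted p = 1.15e-06). With no background subtracted, the difference of HP4 from RKPG9 was 0.01.

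Peg3, a paternally expressed zinc-finger protein, followed the course of Cdkn1c. Its log2 ratios at A_65_P05169 were 1.99, 1.87 and 2.06 on EB5 arrays, 1.20, 1.35 and 1.38 on RKPG9 arrays, 1.86, 1.85 and 1.93 on HP3 arrays and 1.52, 1.80 and 1.77 on HP4 arrays. RKPG9 was lower than EB5 by a difference of -0.66 ± 0.08 (adjusted p = 3.96e-05), and HP3 and HP4 were higher than RKPG9 by 0.57 ± 0.08 (adjusted p = 0.00018) and 0.39 ± 0.08 (adjusted p = 0.0018). At its other probe, A_65_P15743, HP3 rose by 0.31 ± 0.07 (adjusted p = 0.00858) and HP4 differed by 0.11 ± 0.07 (adjusted p = 0.257). The call of HP3 there was lost in 3 of the 12 other processing settings that gave this probe a value.

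Gnas, which encodes the stimulatory G protein alpha subunit and has transcripts of either parental origin, was also lowest in RKPG9. It read -0.83 to -0.78 in EB5, -1.64 to -1.60 in RKPG9, -1.16 to -1.07 in HP3 and -1.07 to -1.02 in HP4. The difference of RKPG9 from EB5 was -0.82 ± 0.03 (adjusted p = 8.78e-09), and those of HP3 and HP4 from RKPG9 were 0.50 ± 0.03 (adjusted p = 6.92e-07) and 0.58 ± 0.03 (adjusted p = 1.72e-07). Igf2r, the receptor that removes IGF-II and is listed as maternally expressed, set the Rex1-/- lines apart. It rose by 0.42 ± 0.03 in HP3 (adjusted p = 2.99e-06) and fell by 0.13 ± 0.03 in HP4 (adjusted p = 0.0111) against RKPG9, where the fall in HP4 was -0.05 and did not pass in the Cy3 channel alone.

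Ampd3, an AMP deaminase, rose in HP4 against RKPG9 by 0.64 ± 0.05 (adjusted p = 3.06e-06). It also differed from EB5 by 0.33 ± 0.05 (adjusted p = 0.000562), which was -0.017 with the processed signals or the deposited table and -0.082 after median centring. Pon3, a paraoxonase, was not well above background on any RKPG9 array, so no size is given for its difference in HP4 (adjusted p = 1.78e-05), a call lost when the Cy3 channel alone was normalized by quantiles (0.14 on the log2 scale). Grb10, an adaptor that restrains insulin and growth factor receptors, rose by 0.41 ± 0.04 in HP3 against EB5 (adjusted p = 9.68e-06) and was lower in HP4 than in HP3 by a difference of -0.39 ± 0.04 (adjusted p = 5.12e-05). Commd1, a protein of copper handling, fell by 0.33 ± 0.03 in HP4 against EB5 (adjusted p = 2.74e-05) and was 0.013 in the Cy3 channel alone.

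Dcn, which encodes the matrix proteoglycan decorin, read -4.38 to -4.06 in EB5, -4.88 to -4.81 in RKPG9, -4.88 to -4.42 in HP3 and -4.42 to -4.04 in HP4. It was lower than in EB5 by differences of -0.62 ± 0.12 in RKPG9 (adjusted p = 0.00187) and -0.41 ± 0.12 in HP3 (adjusted p = 0.0252), and the latter did not pass without replicate 1 or 2 of EB5 or replicate 2 or 3 of HP3 (-0.42 to -0.29). In HP4 it was higher than in RKPG9 by 0.60 ± 0.12 (adjusted p = 0.00222), a difference that was -0.013 with the processed signals, -0.014 with the deposited table and -0.18 in the Cy3 channel alone.

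**Figure D3:**
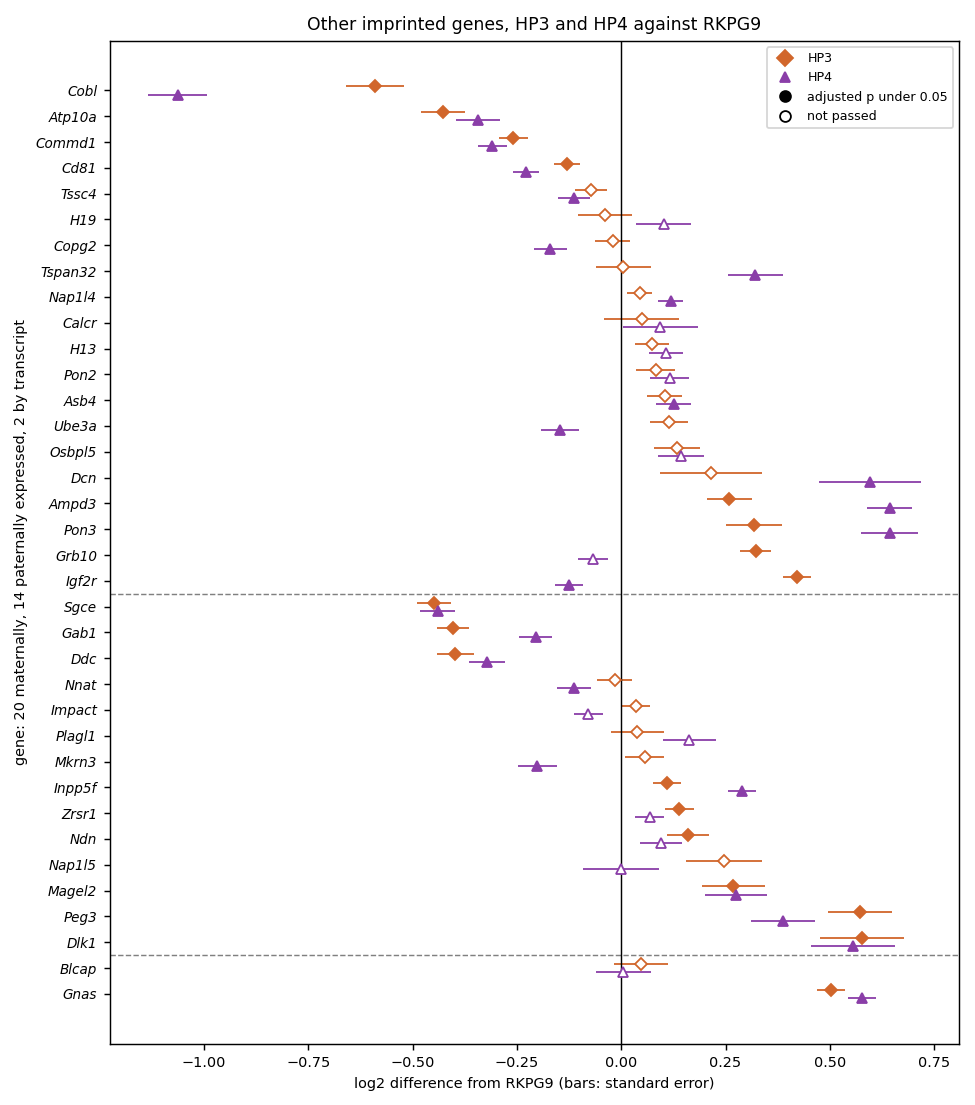
Differences of HP3 and HP4 from RKPG9 on the log2 scale for the 36 measured imprinted genes other than the 6, at the brightest probe of each, with bars of 1 standard error (n = 3 arrays per line) and filled symbols for adjusted p under 0.05. Within each class, genes are sorted by HP3. Both the 20 maternally and the 14 paternally expressed genes spread to either side of 0, and all differences lie between -1.06, of Cobl in HP4, and 0.64.

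Regulators of imprinted marks were measured for 14 of 16 listed genes. Against RKPG9, 4 rose and 1 fell in HP3, and 3 rose and 6 fell in HP4, with medians of 0.04 and -0.14, where 12.6% of all probes rose and 10.1% fell in HP3 and 20.8% rose and 19.2% fell in HP4. In HP4 against HP3 none rose and 8 of the 14 fell, where 14.7% of all probes fell. The list holds Zfp42, the targeted gene itself, which is among the falls of HP4 against both RKPG9 and HP3. Dnmt3b, a de novo DNA methyltransferase, gave the largest rise in both lines. Its log2 ratios at A_65_P11542 were 4.57, 4.50 and 4.76 (EB5), 3.75, 3.91 and 3.98 (RKPG9), 5.07, 4.98 and 4.87 (HP3) and 5.17, 5.00 and 4.78 (HP4). The differences from RKPG9 were 1.09 ± 0.10 (adjusted p = 8.27e-06) and 1.10 ± 0.10 (adjusted p = 5.31e-06), and 1.12 ± 0.07 (adjusted p = 4.52e-07) and 1.13 ± 0.07 (adjusted p = 3.12e-07) at its other probe. RKPG9 lay below EB5 by a difference of -0.73 ± 0.10 (adjusted p = 0.000147), and HP3 and HP4 above EB5 by 0.37 ± 0.10 (adjusted p = 0.0165) and 0.38 ± 0.10 (adjusted p = 0.00969), the last of which was -0.24 after median centring. The difference of HP3 from EB5 did not pass when replicate 1 (0.35) or 2 (0.31) of EB5 or replicate 1 of HP3 (0.32) was left out.

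Dnmt3a, the other de novo methyltransferase, rose by 0.36 ± 0.04 in HP3 (adjusted p = 2.9e-05) and 0.32 ± 0.04 in HP4 (adjusted p = 4.55e-05), and the rise in HP4 turned to -0.11 after median centring. Of its other 3 probes, A_65_P18512 and A_65_P01146 also rose in both lines, by 0.33 to 0.46, and A_65_P06014 did not pass in either, at 0.25 ± 0.09 and 0.19 ± 0.09, though HP3 passed without HP4 replicate 1 or 2 (0.25) and HP4 without HP4 replicate 1 (0.29). Dppa3, a maternal factor that protects methylation at imprints, read 4.31, 4.33 and 4.61 (RKPG9), 3.88, 4.26 and 4.24 (HP3) and 3.24, 3.81 and 3.65 (HP4). It fell in HP4 against RKPG9 by 0.85 ± 0.14 (adjusted p = 0.000542) and against EB5 by 1.11 ± 0.14 (adjusted p = 9.33e-05), while its difference of -0.29 ± 0.14 between HP3 and RKPG9 did not pass (adjusted p = 0.183). Zfp57, which binds methylated imprint control regions, fell in HP4 by 0.27 ± 0.04 (adjusted p = 0.000374), a difference that was 0.15 after median centring.

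Dppa3 also fell in HP3 against EB5, by 0.55 ± 0.14 (adjusted p = 0.0122), and Dnmt3a in RKPG9 against EB5, by 0.31 ± 0.04 (adjusted p = 6.83e-05). Zfp57 was higher than in EB5 by 0.24 ± 0.04 in HP3 (adjusted p = 0.00135) and 0.19 ± 0.04 in RKPG9 (adjusted p = 0.00484), the first of which was -0.17 in the Cy3 channel alone. Zfp42 itself fell in HP4 by 0.58 ± 0.09 against RKPG9 (adjusted p = 0.000244) and by 0.53 ± 0.09 against EB5 (adjusted p = 0.000489). Uhrf1, which brings the maintenance methyltransferase to newly copied DNA, fell by 0.15 ± 0.03 in HP3 against RKPG9 (adjusted p = 0.00399) and by 0.23 ± 0.03 in HP4 against EB5 (adjusted p = 0.000155), and the latter was 0.18 in the Cy3 channel alone. Hells, a chromatin remodeller, rose by 0.21 ± 0.03 in HP3 against RKPG9 (adjusted p = 0.000268). Mbd3, a subunit of the NuRD complex, fell against EB5 by 0.29 ± 0.04 in RKPG9 (adjusted p = 0.000306) and by 0.16 ± 0.04 in HP3 (adjusted p = 0.0151), where it did not pass without replicate 3 of EB5 (-0.15) or replicate 2 of HP3 (-0.14). Tet1, which oxidizes methylated cytosine, was lower in HP4 than in HP3 by a difference of -0.31 ± 0.09 (adjusted p = 0.0299), which was 0.099 in the Cy3 channel alone and did not pass without replicate 2 or 3 of either line (-0.33 to -0.24). Of the 13 other processing settings, the call of Zfp57 in RKPG9 against EB5 was lost in 4. Those of Dppa3 in HP3 against EB5 and Tet1 in HP4 against HP3 were lost in 3 each.

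In the insulin-like growth factor pathway, in which IGF-II acts through Igf1r and is bound by the Igfbp proteins, 10 of 14 listed genes were measured. Against RKPG9, 3 rose and none fell in HP3, and 5 rose and 2 fell in HP4, where 12.6% of all probes rose and 10.1% fell in HP3 and 20.8% rose and 19.2% fell in HP4. Igfbp2, a binding protein, rose by 0.61 ± 0.04 in HP3 (adjusted p = 1.03e-06) and by 0.81 ± 0.04 in HP4 (adjusted p = 7.97e-08). It had been lower in RKPG9 than in EB5, by a difference of -0.81 ± 0.04 (adjusted p = 6.74e-08). Against EB5, 1 gene rose and 6 fell in HP3, 2 rose and 6 fell in HP4, and 1 rose and 8 fell in RKPG9, where 19.1, 26.5 and 21.6% of all probes fell in turn.

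Igfbp3, another binding protein, was lower than in EB5 in all 3 targeted lines by differences of -1.06 ± 0.06 in HP3 (adjusted p = 2.4e-07), -1.20 ± 0.06 in HP4 (adjusted p = 9.01e-08) and -1.06 ± 0.06 in RKPG9 (adjusted p = 1.18e-07). It read 1.71, 1.78 and 1.88 in EB5 and 0.47 to 0.78 on the other arrays. Irs1, an insulin receptor substrate, fell by 0.65 ± 0.06 in HP3 against EB5 at A_65_P15609 (adjusted p = 1.07e-05) but not at A_65_P16645, where it differed by 0.02 ± 0.07 (adjusted p = 0.837). Irs1 at A_65_P15609 also fell in HP4 against EB5 by 0.33 ± 0.06 (adjusted p = 0.00092), a difference of 0.021 with no background subtracted. It rose in HP4 against RKPG9 by 0.26 ± 0.06 (adjusted p = 0.00464), but this was -0.13 with the processed signals or the deposited table, -0.013 in the Cy3 channel alone and -0.023 after median centring.

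Igfbp4 fell by 0.63 ± 0.04 in RKPG9 against EB5 (adjusted p = 1.35e-06) but was -0.05 and did not pass in the Cy3 channel alone. It fell against EB5 by 0.49 ± 0.05 in HP3 (adjusted p = 3.24e-05) and by 0.28 ± 0.04 in HP4 (adjusted p = 0.000446), where it was 0.13 with no background subtracted. Against RKPG9 it rose in HP4 by 0.35 ± 0.04 (adjusted p = 9.68e-05), a difference that turned to -0.18 in the Cy3 channel alone and to -0.051 after median centring. Igf1, the other insulin-like growth factor, rose against RKPG9 by 0.48 ± 0.08 in HP4 (adjusted p = 0.000546) and by 0.30 ± 0.08 in HP3 (adjusted p = 0.0188), where it did not pass without replicate 1 or 3 of RKPG9 or of HP3 (0.25 to 0.28). Of the 13 other processing settings, the call of Igf1 was lost in 4 for HP3 and in 2 for HP4. Igfbp5 was higher in HP4 than in HP3 by 0.21 ± 0.03 (adjusted p = 0.00104).

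Igf1r, the receptor for both factors, did not read alike at its 3 probes. At its brightest, A_65_P17996, it was higher than in EB5 by 0.82 ± 0.15 in HP3 (adjusted p = 0.00402) and by 0.66 ± 0.20 in RKPG9 (adjusted p = 0.0363), and lower in HP4 than in HP3 by a difference of -0.63 ± 0.14 (adjusted p = 0.0103). Only 1 RKPG9 array and 2 EB5 arrays entered this value, as outlier spots were left out, and the difference of RKPG9 did not pass without replicate 1 or 2 of EB5 or replicate 2 of HP3 (0.62 to 0.70). In HP3 against EB5 it fell at A_65_P07762 by 0.32 ± 0.04 (adjusted p = 0.00013), which was 0.12 in the Cy3 channel alone, and did not pass at A_65_P04829 (-0.09 ± 0.08, adjusted p = 0.441). By the median of the probes, RKPG9 against EB5 was -0.44 and HP4 against HP3 0.0057.

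Genes whose log2 ratios ran most like those of each of the 6 over the 12 arrays were sought among 962 probes of genes with a symbol that were well above background in Cy3 on every array and whose line means spanned at least 0.5 on the log2 scale, by Pearson's r. Meg3 ran closest to Snhg14 (r = 0.962), Lrch4 (r = 0.958) and Otx2 (r = 0.947), and Snhg14 closest to Armcx1 (r = 0.965), Meg3 (r = 0.962) and Otx2 (r = 0.958). Cdkn1c ran closest to Ccng (r = 0.99), Peg3 (r = 0.984) and Csf2ra (r = 0.98), and Mest to Pdgfc (r = 0.98), Trim2 (r = 0.97) and Trh (r = 0.963). Slc38a4 ran closest to Odc (r = 0.975), Anapc10 (r = 0.965) and S100a6 (r = 0.964), and Igf2 at A_65_P06533, which itself did not meet this filter and was at background in HP4, to Perp (r = 0.996), DKFZp434H0820 (r = 0.993) and Anxa3 (r = 0.987). The 12 arrays form 4 lines and share 1 reference RNA, so each correlation describes mainly 4 line means and carries no p.

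Markers of other cell types were also read. Among all probes, 12.6% rose and 10.1% fell in HP3 against RKPG9, and 20.8% rose and 19.2% fell in HP4. All 3 measured of 8 fibroblast and mesenchymal markers had line means of -3.15 to -2.06, and 3 of 3 rose in HP4 against RKPG9 (differences of 0.32 to 0.86) while 1 of 3 rose in HP3. Their summed Cy3 signal over background was 285 to 298 in EB5, 277 to 284 in RKPG9, 232 to 285 in HP3 and 176 to 202 in HP4. Of 8 endoderm markers, none rose and 1 fell in HP3 against RKPG9, with differences of -0.92 to 0.22, and 3 rose and 2 fell in HP4, with differences of -0.85 to 0.66, and they had summed signals of 653 to 786 in EB5, 611 to 641 in RKPG9, 511 to 584 in HP3 and 464 to 488 in HP4. Not well above background on any array were Foxa2 in EB5, Gata4 and Ttr in RKPG9, Gata4, Ttr and Foxa2 in HP3, and Gata4 and Foxa2 in HP4. The endoderm ranges include these genes, so their ends are not taken as sizes. Of 6 trophoblast markers, none rose and 1 fell in HP3 against RKPG9, with differences of -0.23 to 0.01, and 2 rose and 1 fell in HP4, with differences of -1.11 to 0.48. Their summed signals were 1744 to 2121 in EB5, 1575 to 1670 in RKPG9, 1243 to 1418 in HP3 and 690 to 724 in HP4, and Eomes in HP3 and HP4 and Hand1 in HP4 were not well above background. None of 4 early mesoderm markers passed against RKPG9 in either Rex1-/- line, and their summed signals ran from 822 to 1129 in EB5 down to 331 to 366 in HP4. Against EB5, read in its own session, 19.1, 26.5 and 21.6% of all probes fell in HP3, HP4 and RKPG9 in turn. In that order 11.4, 18.4 and 12.6% rose. Of 6 trophoblast markers 3 fell in each line, with lowest differences of -1.25, -1.01 and -1.20, and 1 rose in RKPG9. Of 8 endoderm markers 2, 1 and 1 fell, and 2 rose in HP4 and 1 in RKPG9. Of 4 mesoderm markers 1, 2 and 1 fell and none rose. Of 3 fibroblast markers 1 fell in HP3 and 2 in RKPG9, and 2 rose in HP4. The part of these cell types in the results was not tested.

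**Figure D4:**
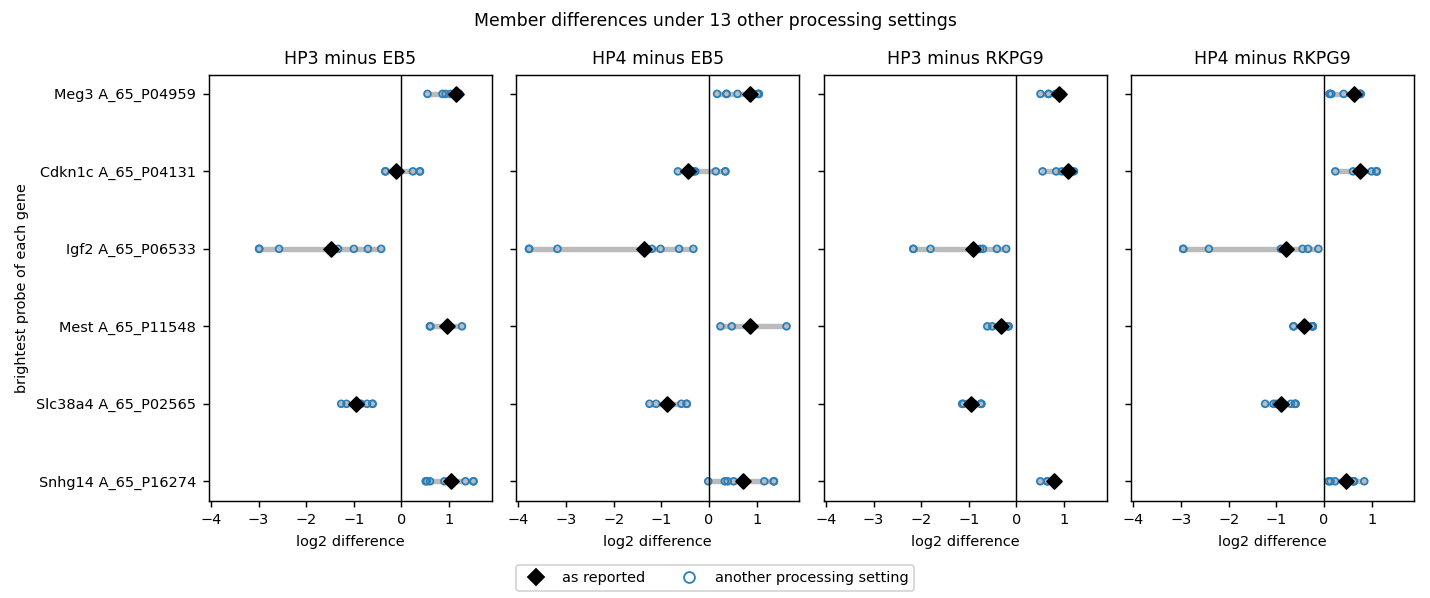
Difference on the log2 scale at the brightest probe of each of the 6 genes, as reported (diamonds) and under each of 13 other processing settings (circles, with a grey bar over their range), for HP3 and HP4 against EB5 and RKPG9. Meg3, Mest, Slc38a4 and Igf2 stay on 1 side of 0 in all 4 panels, Cdkn1c crosses 0 against EB5 only, and Snhg14 reaches -0.02 in HP4 against EB5.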

How the data were processed

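Total RNA of each line was labelled with Cy3 and Universal Mouse Reference RNA, a pool from 11 cell lines per the labels, with Cy5, and both were hybridized to Agilent arrays. The authors deposited the scanner output of Feature Extraction, which holds the intensity of both channels, and log10 values in a processed matrix. The deposited log10 values followed the log2 ratio of the scanner intensities with 92.4 to 92.8% of values within 0.1 after centring, which fixed their scale and direction, and they were used as an alternative only. Pearson's r per array after the same centring was only 0.65 to 0.82, so the remaining values can lie far apart. The authors analysed their arrays with the NIA Array Analysis software.

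Both channels were corrected with normexp (offset 50) and normalized by loess within arrays, with control spots and spots called outliers by the scanner software at weight 0, and outlier spots were dropped afterwards. Log2 ratios (line over reference) computed from the deposited intensities were averaged over spots of a probe. All 12 arrays entered a single limma fit of 4 lines with 8 residual degrees of freedom, and p-values were Benjamini-Hochberg adjusted over all gene probes tested, at a threshold of 0.05. No label states that a line was cultured separately for each array, so p-values measure the spread between these samples, which may be technical. The number of arrays limits the precision.

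Probes were named through RefSeq (GRCm38.p6), which gave 8566 of 20280 probes a symbol, 4126 of them through an older symbol. The 6 genes, the gene lists and the tests were chosen with earlier results of these data known. Named were all probes of the 6 genes, all measured genes of their clusters, up to 4 called genes with the largest change per further list and comparison, and the 3 genes most alike to each of the 6. A gene's call was taken at its brightest probe. The dim side of Igf2 at A_65_P06533 was bounded, per array, by the higher of the lowest signal well above background and the reading of the probe itself, here the latter, after loess and Aquantile in the Cy3 channel alone, which leaves it open to dye bias. The procedure was tested on simulated data. Tools were R 4.3.3, limma 3.58.1, the data.table package (1.17.8), Python 3.11.15, pandas 2.3.3, numpy 2.4.6 and matplotlib 3.10.9. Alternatives changed the background step (processed signals, normexp offset 0, or no subtraction), the scaling (median centring, Aquantile, or Cy3 intensities by themselves), the spots and probes used (outliers kept, dim probes filtered, a gene's probes by their median), the model (limma with a trend, a fit to the compared lines alone, the replicate number as a block), the source (deposited log10 values) and the arrays (each left out in turn).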

Additional observations from a re-analysis of the deposited data

Results flagged for a closer look

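Among the genes whose difference from RKPG9 is given above, 19 probes of 18 genes also differed between HP4 and HP3 in the test of these lines against each other (limma, adjusted over all gene probes). Among all probes, 13.7% were called higher and 14.7% lower in HP4 than in HP3. Of the 18 genes, Igf2r, Cobl, Ampd3, Dppa3, Zfp42, Zfp57 and Irs1 had been picked for their size among those called in this same comparison. The number of probes looked at was not counted, so nothing is read from the 19. HP4 was lower than HP3 at Igf2r, by a difference of -0.55 ± 0.03 (adjusted p = 4.39e-06), at Cobl by -0.47 ± 0.07 (adjusted p = 0.000683), at Dppa3 by -0.56 ± 0.14 (adjusted p = 0.0124), at Zfp42 by -0.55 ± 0.09 (adjusted p = 0.000956), at Zfp57 by -0.32 ± 0.04 (adjusted p = 0.000341) and at Uhrf1 by -0.09 ± 0.03 (adjusted p = 0.0455). Among neighbours of the 6 genes, HP4 was lower at both Ube3a probes, by -0.38 ± 0.05 at A_65_P06255 (adjusted p = 0.00028) and -0.26 ± 0.05 at A_65_P12680 (adjusted p = 0.00168), at Mkrn3 by -0.26 ± 0.05 (adjusted p = 0.00203), at Copg2 by -0.15 ± 0.04 (adjusted p = 0.022), at Cd81 by -0.10 ± 0.03 (adjusted p = 0.0321) and at the probe similar to Rian by -0.34 ± 0.08 (adjusted p = 0.00989). HP4 was higher at Ampd3 by 0.38 ± 0.05 (adjusted p = 0.000495), at Dcn by 0.38 ± 0.12 (adjusted p = 0.0364), at Irs1 by 0.32 ± 0.06 (adjusted p = 0.00226), at Igfbp4 by 0.21 ± 0.05 (adjusted p = 0.00857), at Pon3 by 0.32 ± 0.07 (adjusted p = 0.00474), at Tspan32 by 0.32 ± 0.07 (adjusted p = 0.00448) and at Igfbp2 by 0.20 ± 0.04 (adjusted p = 0.00545). Under the 13 other processing settings, the call of Irs1 was lost in 5, Dppa3 in 4, Ampd3 in 3, Zfp57 in 2 and Cobl in 1. Ampd3 also turned in 1 more, while Igf2r and Zfp42 kept their calls in all 13. The other probes of this list were not followed through these settings in HP4 against HP3, so the stability of their calls is not known. HP4 arrays were also the dimmest in Cy3, and the part of this in these differences was not tested.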

How the results depend on the processing

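The number of the 36 other imprinted genes called stayed within 1.5 times the reported count under every alternative except 2, both in HP4 against HP3, which gave 6 genes in place of 14 with Cy3 by itself and 27 after median centring. Leaving out each array in turn gave 11 to 14 genes for HP3 against EB5, 15 to 21 for HP4 against EB5, 21 to 22 for RKPG9 against EB5, 14 to 18 for HP3 against RKPG9, 20 to 25 for HP4 against RKPG9 and 11 to 14 for HP4 against HP3. The labels state no batch shared by arrays of 1 replicate number, and correlations of same-numbered deviations ran from -0.18 to 0.20, so the numbers were not taken to pair the arrays, although 9 of 12 arrays lay closest to their own number, a hint from the data and not from the design. With the replicate number as a block the counts were 12, 20, 21, 18, 24 and 14, in the same order, against 13, 21, 21, 18, 24 and 14 without it, and of the genes named Ndn in HP3 against RKPG9 (0.16) and Igf1r in RKPG9 against EB5 (0.40) lost their calls while Ube3a at A_65_P12680 gained one (0.12).

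Among the 6 genes, Cdkn1c in HP4 against EB5 turned to 0.34 with the processed signals, 0.34 with the deposited table and 0.14 with an offset of 0, and to 0.046 in HP4 against HP3 with Cy3 by itself. Snhg14 at A_65_P16274 turned to -0.015 in HP4 against EB5 with no background subtraction, to -0.11 with that setting and -0.33 with Cy3 by itself in RKPG9 against EB5, and to 0.010 with Cy3 by itself in HP4 against HP3. In HP4 against RKPG9, median centring gave -0.028 for Dlk1, -0.52 for Nap1l4, -0.19 for Osbpl5, -0.11 for Dnmt3a and 0.15 for Zfp57, and in HP4 against EB5 it gave -0.24 for Dnmt3b. The Cy3 channel alone gave -0.012 for Nap1l4 and 0.093 for Ube3a at A_65_P12680 in HP4 against RKPG9, and -0.24 for Ndn in HP3 against RKPG9, and no background subtraction gave 0.0053 for Sgce in HP4 against RKPG9. Further genes named turned as well. In HP4 against RKPG9, Dcn was -0.013 with the processed signals, -0.014 with the deposited table and -0.18 with Cy3 by itself, Irs1 -0.13 with either of those, -0.023 after median centring and -0.013 with Cy3 by itself, and Igfbp4 -0.051 after median centring and -0.18 with Cy3 by itself. In HP4 against EB5, Ampd3 was -0.017 with the processed signals and with the deposited table and -0.082 after median centring, Commd1 0.013 and Uhrf1 0.18 with Cy3 by itself, and Irs1 0.021 and Igfbp4 0.13 with no background subtraction. With Cy3 by itself, Zfp57 was -0.17 and Igf1r at A_65_P07762 0.12 in HP3 against EB5, and Ampd3 -0.018 and Tet1 0.099 in HP4 against HP3. By the median of its probes, Igf1r was -0.44 in RKPG9 against EB5 and 0.0057 in HP4 against HP3. The causes were not tested. Meg3 at A_65_P04959 kept its direction in all 6 comparisons under all 13 alternatives. Some of these, such as Aquantile, the trend or the fit to the compared lines alone, cannot change a difference. Meg3 at A_65_P00953 turned from 0.29 to -1.74 in HP3 against RKPG9 with the deposited table. Signal over background limits Igf2 at A_65_P06533, whose difference between HP4 and RKPG9 ran from -2.96 to -0.12.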
